A study of Homo sapiens with 13 samples.

Results

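The SOX genes encode transcription factors with a high-mobility-group box that binds DNA, and 10 of the 56831 genes in the RNA-seq tables were followed here. They were chosen by symbol alone, as the rows SOX1, SOX2, SOX4, SOX5, SOX6, SOX8, SOX9, SOX10, SOX11 and SOX21 of the H82 and H146 tables. H82 (SCLC-N) and H146 (SCLC-A) are established small cell lung cancer (SCLC) lines of wild-type genotype in the labels, both grown in RPMI1640 with serum. Treated cells received FHD-286, an allosteric inhibitor of the SMARCA2 and SMARCA4 ATPases of the SWI/SNF chromatin remodelers, at 100 nM for 14 days with regular renewal. Untreated cells received no drug, and a vehicle is not mentioned in the labels. There were 3 untreated and 3 treated libraries of H82, and 3 untreated and 4 treated libraries of H146. The labels do not say whether replicates came from separate cultures, so the *p* values measure the spread between these libraries, which may be technical. The comparison asks how each SOX gene changes with the inhibitor in each line, and whether the change differs between the lines.

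SOX proteins are grouped by the sequence of their box, and members of a group often act alike. SOX1 and SOX2 (group B1) activate genes that keep neural progenitors and stem cells undifferentiated, and SOX21 (group B2) is a repressor that opposes them during neurogenesis. SOX4 and SOX11 (group C) act in immature neurons, SOX5 and SOX6 (group D) lack an activation domain of their own and serve as cofactors, and SOX8, SOX9 and SOX10 (group E) direct glia, neural crest, cartilage and gonad. SOX2 is known as an amplified and highly expressed lineage factor in SCLC.

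In GENCODE release 44 on GRCh38, SOX1 is annotated at chr13:112067149-112071706, SOX2 at chr3:181711925-181714436, SOX4 at chr6:21593751-21598619 and SOX11 at chr2:5692384-5701385, all on the plus strand and each with 1 exon. SOX21, also with 1 exon, is at chr13:94709622-94712545 on the minus strand. SOX5 (chr12:23529504-24562544, 15 exons) and SOX6 (chr11:15966449-16739591, 16 exons) are long minus-strand genes. SOX8 (chr16:981770-986979) and SOX9 (chr17:72121020-72126416) each have 3 exons on the plus strand, and SOX10 (chr22:37970686-37987422) has 4 on the minus strand. Because strand use in the counting is not given in the sources used here, transcripts that overlap a member are described with it.

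Stretches of the promoters of SOX2, SOX4, SOX5 and SOX21 are shown because these members were called higher in treated H146. RefSeq windows on GRCh38.p14, reaching from 250 bases before to 50 after the gene start, were present for SOX1, SOX2, SOX4, SOX5, SOX6 and SOX21. SOX8, SOX9, SOX10 and SOX11 had no entry. The core SOX motifs ACAATG and ACAAAG and the E-boxes CAGATG and CAGCTG, which bHLH factors bind, were searched on both strands. Among all 35116 windows, ACAATG was held by 10.8%, ACAAAG by 16.1%, CAGATG by 14.7% and CAGCTG by 17.9%. In the lines below, capitals mark the motif, each run reads 5′ to 3′ on the strand of the gene, and no printed motif overlaps another.
SOX2, chr3:181711693-181711722, plus strand: gcgagaggggatACAAAGgtttctcagtgg
SOX4, chr6:21593518-21593547, plus strand: cagcagaaatctCAGCTGtacttctagccc
SOX4, chr6:21593676-21593705, plus strand: cgttggttacagCAGCTGattggctgcagc
SOX5, chr12:24562654-24562683, minus strand: cctcgcctccccCATTGTtcctactgtctt
SOX5, chr12:24562612-24562641, minus strand: tatttgcactcgCATTGTgttgtttgtctc
SOX21, chr13:94712569-94712598, minus strand: cttccccaccccCATCTGcttctgtcaaat

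SOX2 thus held 1 SOX motif, SOX5 held 2 on the opposite strand, and SOX4 and SOX21 held E-boxes but no SOX motif in this window. The SOX1 window held none of the 4 letter strings. Of the 5 windows of SOX6, which was below the filter in H146, 2 held matches, with 5 SOX motifs and 2 E-boxes in all. A match is a description of the letters and shows no binding.

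Values are in TPM, which corrects for transcript length and for the library total, so levels of different genes can be compared within a library. Every library sums to 1000000 TPM. The read depth is unknown, so counting intervals are not given. In treated H82, 15554 to 16633 genes were at 1 TPM or more, against 21227 to 21772 in untreated H82. In H146 the order was the other way, with 18778 to 19309 in treated and 17476 to 17965 in untreated libraries. The mitochondrial share of TPM was 12.3% to 14.9% in treated and 22.1% to 24.1% in untreated H82. It was 3.82% to 11.4% in treated and 7.56% to 8.86% in untreated H146. All 7 neuroendocrine markers examined reached 1 TPM in every group, with a summed level of 894 to 1036 TPM in untreated and 1144 to 1518 TPM in treated H82, and of 3444 to 3940 TPM in untreated and 2750 to 2992 TPM in treated H146. The members of that list did not move together. In H82 UCHL1 (log2 fold change 1.11, adjusted *p* = 0.00188 by limma) and INSM1 (2.19, adjusted *p* = 0.0498) rose. SYP (-2.13, adjusted *p* = 0.000441) and CHGA (-2.36, adjusted *p* = 0.00574) fell in that line. INSM1 was at 12.5, 15.8 and 14.8 TPM in untreated H82 and at 32.1, 296 and 33.9 TPM in treated H82. In H146 CHGB rose (1.63, adjusted *p* = 0.000186 by limma). DLL3 (-0.60), INSM1 (-0.50) and UCHL1 (-0.44) fell there, with limma adjusted *p* values from 0.00341 to 0.0219. SYP, CHGA and NCAM1 were not called in H146. After scaling libraries by the median of ratios, SYP was called lower there (-0.57, adjusted *p* = 0.0143). The endothelial, leukocyte and fibroblast markers (5 genes) summed to between 1.11 and 21.2 TPM across all libraries, with the endothelial markers PECAM1 and CDH5 at 0.525 TPM or less in every library. The highest sum, in treated H82 replicate 3, was mostly COL1A1 (16.7 TPM), which was at 0.141 TPM in treated H82 replicate 2. LUM, a fibroblast matrix gene and the only one of these 5 tested in H82, was at 0.510, 0.259 and 1.09 TPM in untreated and at 3.14, 3.14 and 4.41 TPM in treated libraries and rose (1.51, SE 0.26, adjusted *p* = 0.00231 by limma). Its part in the SOX results of H82 was not tested.

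Treated H82 replicate 2 stood apart in genes that untreated H146 expressed and untreated H82 did not. Over expressed genes in general, treated H82 replicate 1 was the most distant. Its SD of the log2 difference was 0.88 to replicate 2 and 0.80 to replicate 3, against 0.58 between replicates 2 and 3. A set of 220 genes lay at 10 TPM or more in every untreated H146 library and at 0.1 TPM or less in every untreated H82 library, and SOX2, SOX9 and SOX21 are 3 of them. The other 217 summed to 476 TPM in treated H82 replicate 2, or 6.47% of their mean in treated H146, with 76 of them at 1 TPM or more. In treated replicates 1 and 3 they summed to 109 and 53.0 TPM (1.48% and 0.72%), and in untreated H82 to between 1.62 and 2.35 TPM. Taken gene by gene over the 216 that are no SOX gene, the median percent of the treated H146 mean was 2.66% in replicate 2, 0.627% in replicate 1 and 0.159% in replicate 3. Results for SOX members in H82 that rest on replicate 2 are given with and without it.

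The lines began with different SOX genes. In untreated H146, SOX2 averaged 838 ± 132 TPM (SD, n = 3) and made up 82.04% to 83.88% of the summed TPM of the 10 members. SOX4 (84.4 ± 13.6), SOX11 (51.7 ± 5.23), SOX9 (16.8 ± 2.39) and SOX21 (11.6 ± 0.819 TPM) followed, with no overlap between neighbours in that order. SOX1 (2.17 ± 0.772) and SOX5 (1.38 ± 0.385 TPM) came next and overlapped, and SOX6, SOX8 and SOX10 stayed under 0.4 TPM in every untreated library. In untreated H82 the summed TPM of the 10 members came almost wholly from group C. SOX11 was at 65.8 ± 0.866 TPM and SOX4 at 56.5 ± 2.47 TPM (SD, n = 3), with no overlap. SOX12, a group C gene outside the 10 members, was higher than both, at 95.1 ± 7.25 TPM. Among the members SOX5 (3.89 ± 0.333 TPM) came next, then SOX10 (1.62 ± 0.735) and SOX6 (1.16 ± 0.0896 TPM), which overlapped. SOX1 and SOX2 were at 0.216 TPM or less, and SOX8, SOX9 and SOX21 were listed at 0 in all 3 untreated H82 libraries. The levels of the lines come from 2 tables in which each library is scaled on its own, and their difference between lines was not tested.

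**Figure D1:**
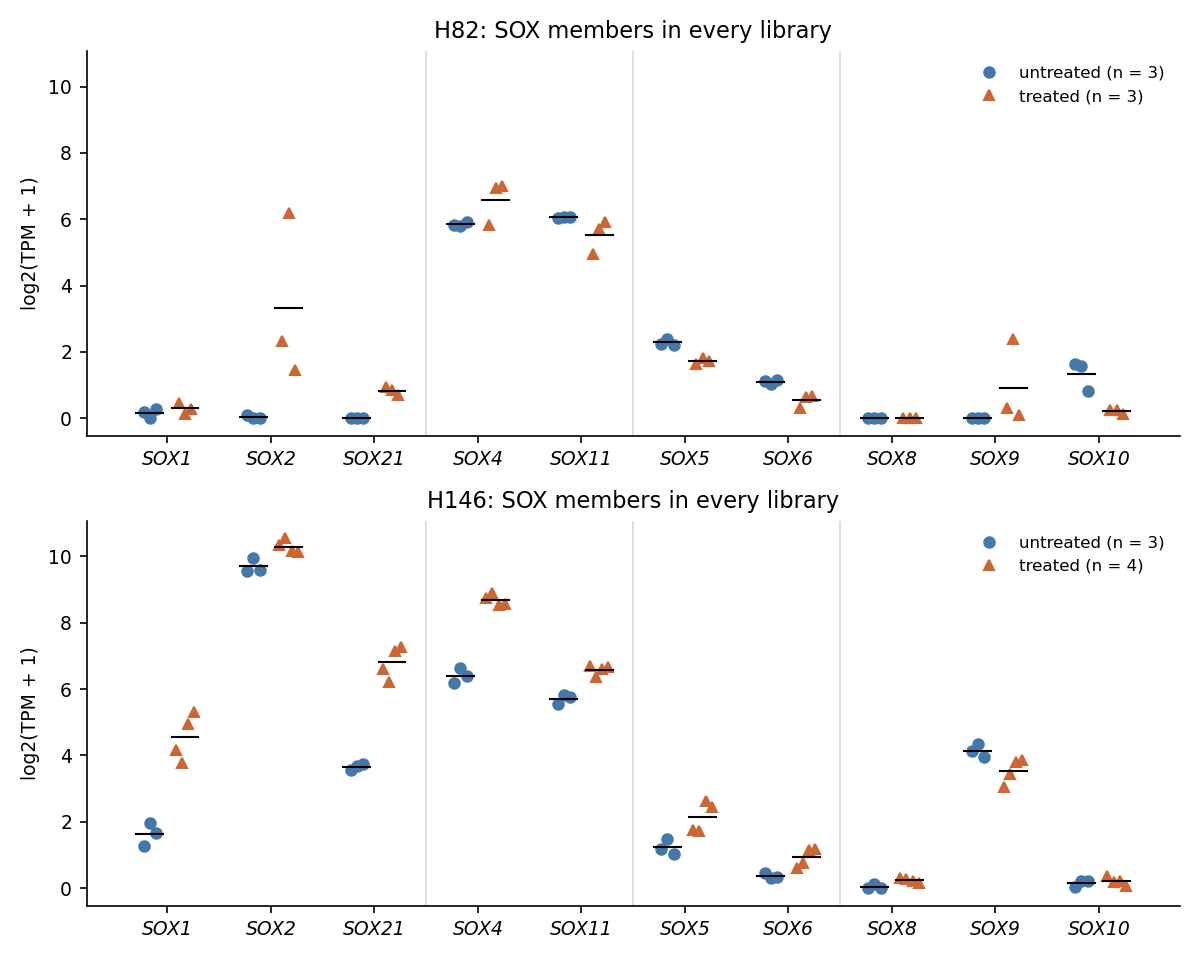
Level of each SOX member in every library, as log2(TPM + 1), in H82 (top) and H146 (bottom). Circles are untreated and triangles treated libraries, black bars are group means, and grey lines separate the groups B, C, D and E. In H146 the treated libraries of SOX1, SOX21, SOX4 and SOX11 all lie above the untreated ones, and in H82 the treated SOX2 and SOX9 libraries are spread over a wide range.

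**Figure D2:**
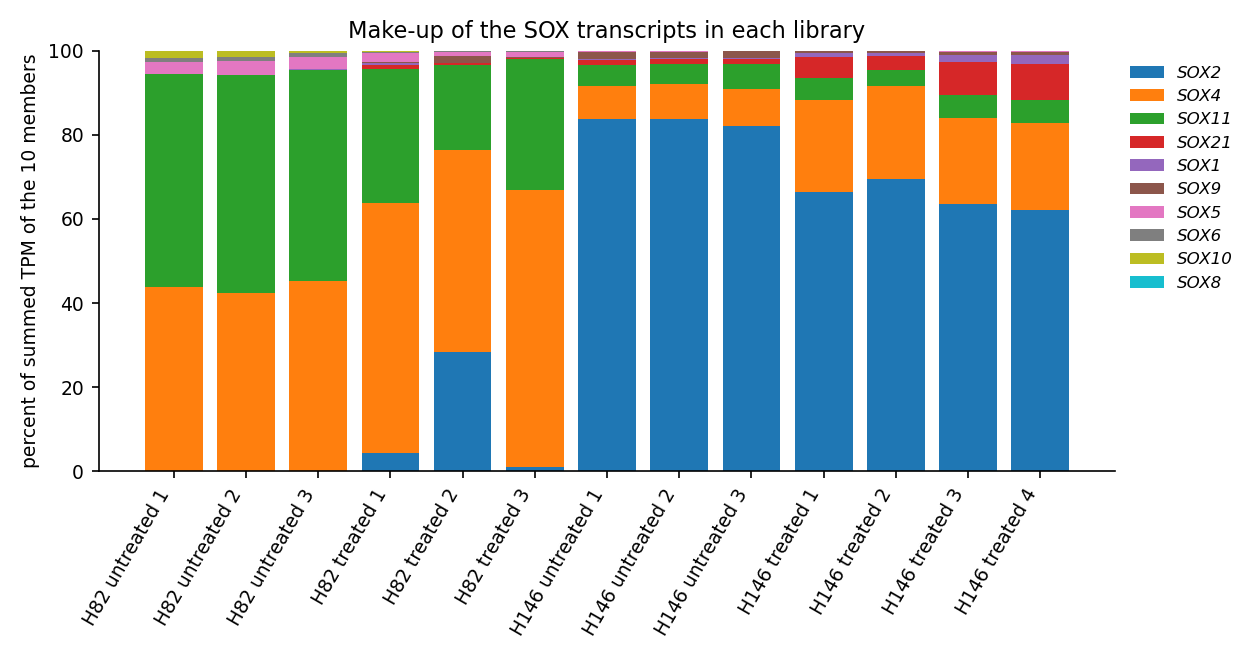
Make-up of the SOX transcripts, as the percent of the summed TPM of the 10 members that each gene took, with 1 bar per library. SOX2 took 82.04% to 83.88% in untreated and 62.1% to 69.6% in treated H146, while SOX4 and SOX11 filled most of every H82 bar.

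In H146, FHD-286 was accompanied by a broad rise of the family. Of the 7 members tested (those at 1 TPM or more in 3 libraries of the line), 6 rose and 1 fell, where 32.5% of all 19585 genes tested were called higher and 15.5% lower. The calls are those of limma on log2(TPM + 1), with a threshold of 0.05 on the *p* value adjusted over all genes tested. SOX21, SOX1 and SOX4 changed most. All 6 risers had every treated library above every untreated one, a pattern held by 35.7% of tested genes, and the member that fell, SOX9, had no overlap either, a pattern held by 17.3%. The median gene tested in H146 had a log2 fold change of 0.25, so changes relative to that median are smaller than those quoted from the fit for genes that rose.

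SOX21, the repressor of group B, was at 10.7, 11.8 and 12.4 TPM in the untreated H146 libraries and at 97.2, 73.4, 141 and 154 TPM in the treated ones. The lowest treated library was several times the highest untreated one, and the treated libraries themselves spread widely. Its log2 fold change was 3.16 (SE 0.25, adjusted *p* = 4.87e-05 by limma), or 2.91 above the median of all genes.

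SOX1, a neural progenitor factor of group B1, was at 1.39, 2.94 and 2.18 TPM without and at 16.8, 12.7, 30.1 and 38.4 TPM with FHD-286. All treated libraries were well above the untreated ones, and replicates 3 and 4 were the highest. The log2 fold change was 2.91 (SE 0.37, adjusted *p* = 0.0005 by limma). SOX2, its partner in the group, rose from a much higher level, with 756, 990 and 767 TPM in untreated and 1301, 1502, 1141 and 1131 TPM in treated libraries. Its groups did not overlap, but the gap between the highest untreated and the lowest treated library was small beside the spread within each group. The log2 fold change was 0.60 (SE 0.16, adjusted *p* = 0.0136 by limma), and after scaling libraries by the median of ratios it was 0.28 (adjusted *p* = 0.225), so the SOX2 call was lost under that scaling. Without untreated replicate 1 it was 0.53 (adjusted *p* = 0.0646), and without untreated replicate 3 it was 0.54 (adjusted *p* = 0.0625).

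Both group C genes, which act in newly formed neurons, rose. SOX4 was at 71.1, 98.3 and 83.8 TPM in untreated and at 428, 477, 368 and 378 TPM in treated H146. It was the most evenly changed of the strongly rising members, with treated libraries close to each other and far from the untreated ones. On the log2 scale SOX4 changed by 2.28 (SE 0.15, adjusted *p* = 2.09e-05 by limma), and its share of the summed member TPM went from between 7.86% and 8.97% to between 20.5% and 22.1%. SOX11 was at 45.8, 55.7 and 53.5 TPM without and at 103, 81.2, 96.0 and 100 TPM with FHD-286. The SOX11 groups were clearly apart, with a log2 fold change of 0.87 (SE 0.13, adjusted *p* = 0.00105 by limma). SOX1, SOX4, SOX11 and SOX21 kept their calls in H146 under each alternative fit run for them, median of ratios, quantile normalization and every left-out library included. With a log2 fold change of at least 1 also required, SOX11 was not called.

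The group D cofactors were low in H146. SOX5 was at 1.28, 1.81 and 1.06 TPM in untreated and at 2.38, 2.28, 5.23 and 4.48 TPM in treated libraries. Replicates 3 and 4 lay well above replicates 1 and 2. Its log2 fold change was 0.90 (SE 0.27, adjusted *p* = 0.0259 by limma). Under the median of ratios it was 0.69 (adjusted *p* = 0.0516), under quantile normalization 0.64 (adjusted *p* = 0.0869), with no filter 0.90 (adjusted *p* = 0.069), and with treated replicates 1 and 2 only it was 0.50 (adjusted *p* = 0.113). The SOX5 call was also lost without untreated replicate 1 (0.87), untreated replicate 3 (0.80), treated replicate 3 (0.73) or treated replicate 4 (0.80), with adjusted *p* values of 0.0818, 0.0993, 0.0558 and 0.0571. SOX6 was below the filter, at 0.383, 0.230 and 0.258 TPM in untreated and at 0.520, 0.694, 1.21 and 1.29 TPM in treated libraries. All treated libraries were above the untreated ones, and a two-sided exact permutation test of mean log2(TPM + 1) gave *p* = 0.0571, unadjusted, where 3 against 4 libraries allow 0.0286 at the least.

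SOX9 was the only tested member that fell in H146. This factor of group E, which drives cartilage and many epithelial progenitors, was at 16.6, 19.2 and 14.5 TPM in untreated and at 7.20, 9.80, 12.8 and 13.5 TPM in treated libraries. The highest treated library was just under the lowest untreated one. For SOX9 the log2 fold change was -0.61 (SE 0.22, adjusted *p* = 0.0468 by limma), and it was -0.91 (adjusted *p* = 0.00614) under the median of ratios. The call was lost when any untreated library, treated replicate 1 or treated replicate 2 was left out (log2 fold changes from -0.72 to -0.45, adjusted *p* from 0.0318 to 0.154 over all 7 left-out libraries). SOX8 was listed at 0, 0.0866 and 0 TPM in untreated and at 0.248, 0.216, 0.169 and 0.113 TPM in treated libraries, with an exact permutation *p* of 0.0571 (unadjusted). SOX10 ranged from 0.026 to 0.165 TPM without and from 0.054 to 0.296 TPM with the drug, with overlapping groups (exact permutation *p* = 0.4, unadjusted). Both stayed near the lower end of the scale.

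**Figure D3:**
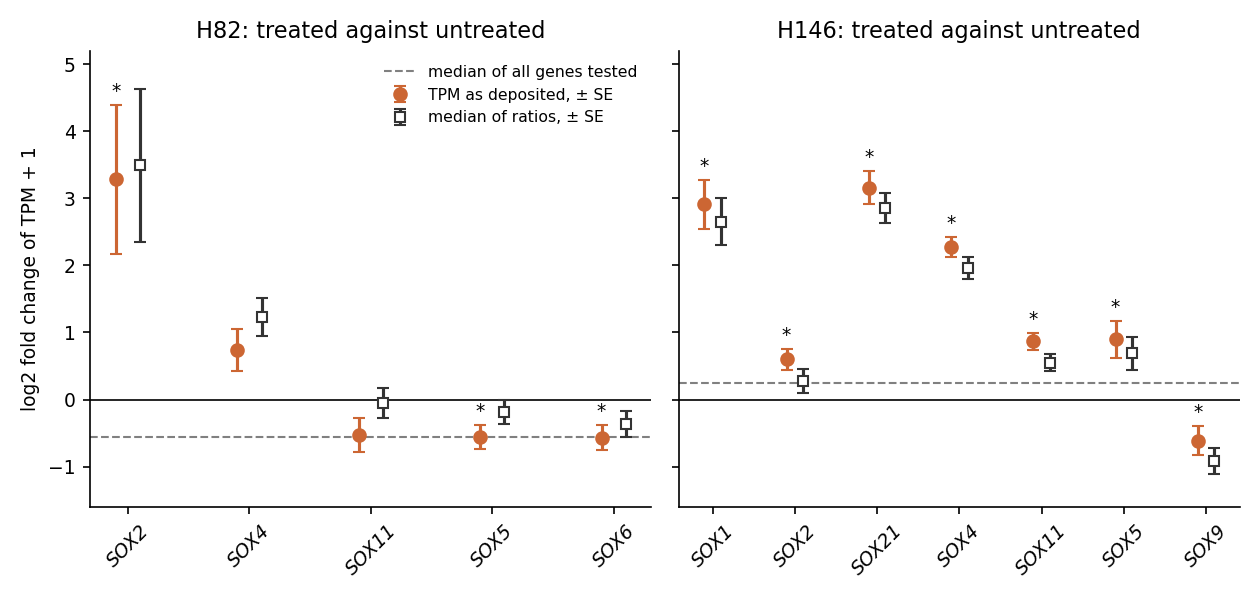
Log2 fold change of TPM + 1, treated against untreated, of each tested SOX member in H82 (left, n = 3 and 3) and H146 (right, n = 3 and 4). Filled points use TPM as deposited, open squares libraries scaled by the median of ratios, bars are SE, and asterisks mark adjusted *p* under 0.05 for the filled points. The dashed line is the median of all genes tested for the filled points (-0.56 and 0.25). Under the median of ratios that median was -0.14 and -0.02. The filled points of SOX5, SOX6 and SOX11 lie on the dashed line in H82.

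In H82 the family did not move as a block. SOX2 rose from next to nothing, unevenly across the libraries. On the log2(TPM + 1) scale SOX5 and SOX6 fell by about as much as the median gene did. For SOX6, which was near 1 TPM, this match depends on the pseudocount. With a pseudocount of 0.1 SOX6 fell by more than the median gene, which was then at -0.65. The log2 ratio of mean TPM was -1.32 for SOX6 and -0.74 for SOX5. Of the 5 members tested, 1 rose and 2 fell, where 13.1% of all 19770 tested genes were called higher and 45.5% lower. The share that fell was thus near the background. SOX2 passed the filter only through its treated libraries and SOX6 only through its untreated ones. The direction of each was thus fixed by the filter, and so was its lack of overlap. Among these 5, SOX2 was higher with no overlap between groups (16.4% of tested genes) and SOX5, SOX6 and SOX11 were lower with no overlap (51.4%). The median gene tested in H82 had a log2 fold change of -0.56.

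SOX2 was at 0.0763, 0 and 0 TPM in untreated H82 and at 3.99, 71.6 and 1.73 TPM in treated H82. Every treated library was above every untreated one, and replicate 2 was far above the other treated ones. Its log2 fold change was 3.28 (SE 1.11, adjusted *p* = 0.0387 by limma). When any 1 treated library was left out, SOX2 no longer passed the filter. With no filter and without that replicate, a setting chosen after seeing the data, it was 1.85 (SE 0.32, adjusted *p* = 0.0182). The call was also lost when any 1 untreated library was left out (log2 fold changes from 3.26 to 3.32, adjusted *p* from 0.087 to 0.11) or with no filter and all libraries (adjusted *p* = 0.0784). SOX2 in treated H82 replicate 2 amounted to 5.65% of its mean in treated H146, beside 6.47% for the sum of the 217 other genes and 2.66% for the median by gene over 216 of them. In replicate 1 it was 0.315%, beside 1.48% and 0.627%, and in replicate 3 it was 0.136%, beside 0.72% and 0.159%. SOX2 was thus below the summed level in each treated library, and above the median gene in replicate 2 but not in replicates 1 and 3. The part these genes play in the SOX2 result was not tested, and in bulk RNA a change in the number of expressing cells and a change in RNA per cell cannot be told apart.

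SOX9 and SOX21 were both listed at 0 in the 3 untreated H82 libraries. SOX9 was at 0.243, 4.20 and 0.0648 TPM in the treated ones, again highest in replicate 2, where it reached 38.8% of its treated H146 mean. SOX21 was at 0.903, 0.799 and 0.643 TPM. Unlike SOX2 and SOX9, SOX21 was even across the treated libraries and was not highest in replicate 2, where it amounted to 0.688% of its treated H146 mean. Both were below the filter, and the exact permutation test gave *p* = 0.1 for each, the smallest that 3 against 3 libraries allow. With no filter, limma gave SOX21 a log2 fold change of 0.83 (SE 0.12, adjusted *p* = 0.0042), and 0.82 (adjusted *p* = 0.0137) without treated replicate 2. For SOX9 these were 0.93 (adjusted *p* = 0.284) and 0.20 (adjusted *p* = 0.193).

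**Figure D4:**
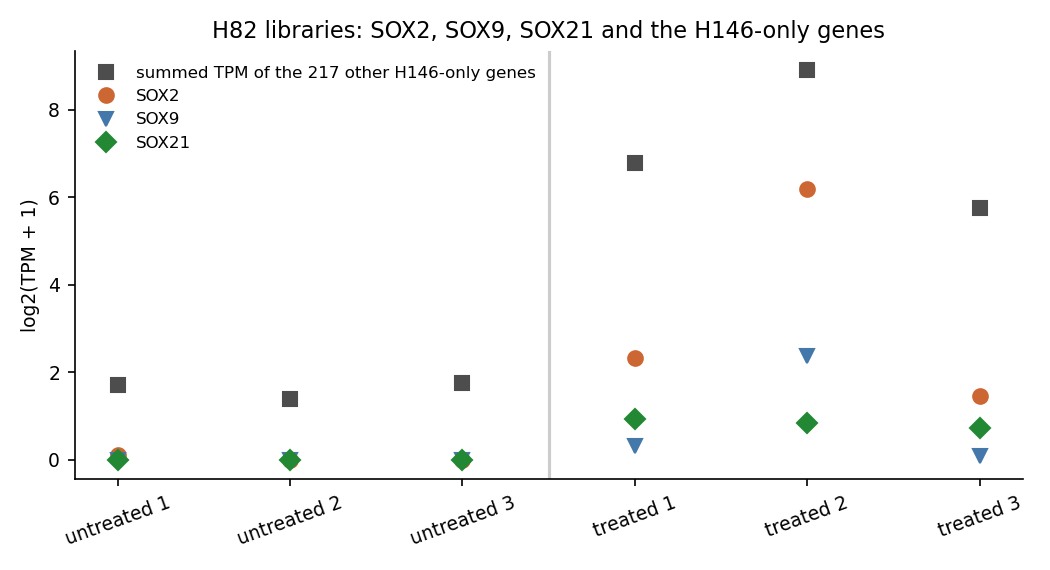
SOX2, SOX9, SOX21 and the summed TPM of the 217 other genes that were at 10 TPM or more in untreated H146 and at 0.1 TPM or less in untreated H82, in each H82 library, as log2(TPM + 1). Treated replicate 2 is highest for SOX2 (71.6 TPM), SOX9 (4.20 TPM) and the summed genes (476 TPM), but not for SOX21 (0.799 TPM).

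SOX4 and SOX11, the highest of the 10 members in untreated H82, went apart. SOX4 was at 56.0, 54.2 and 59.1 TPM in untreated and at 55.7, 121 and 126 TPM in treated libraries. Treated replicate 1 lay among the untreated libraries, and the other treated libraries were about double. SOX4 had a log2 fold change of 0.74 (SE 0.31, adjusted *p* = 0.0774 by limma), which did not pass. It passed under the median of ratios (1.23, adjusted *p* = 0.00964) and without treated replicate 1 (1.12, adjusted *p* = 0.000152), and without treated replicate 2 it was 0.57. SOX11 was at 64.8, 66.5 and 66.0 TPM in untreated and at 29.9, 51.1 and 59.8 TPM in treated libraries. All treated libraries were lower, replicate 1 most. Its log2 fold change was -0.53 (SE 0.25, adjusted *p* = 0.108 by limma). It passed without treated replicate 1 (-0.25, adjusted *p* = 0.0457) and without treated replicate 3 (-0.73, adjusted *p* = 0.0455), and it was -0.05 under the median of ratios. In untreated H82, SOX11 exceeded SOX4 in all 3 libraries, and in treated H82, SOX4 exceeded SOX11 in all 3. SOX4 took 42.4% to 45.1% of the summed member TPM before and 48.0% to 65.9% after treatment.

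SOX5 was at 3.73, 4.27 and 3.67 TPM in untreated H82 and at 2.12, 2.51 and 2.34 TPM in treated H82. The groups were tight and separate. The log2 fold change was -0.56 (SE 0.18, adjusted *p* = 0.0339 by limma), equal to the median of all genes, and it was -0.19 (adjusted *p* = 0.405) under the median of ratios and turned to 0.44 (adjusted *p* = 0.106) under quantile normalization. SOX6 was at 1.18, 1.06 and 1.23 TPM in untreated and at 0.237, 0.565 and 0.591 TPM in treated libraries. All treated libraries were lower, with a log2 fold change of -0.57 (SE 0.19, adjusted *p* = 0.0366 by limma), which was -0.36 (adjusted *p* = 0.138) under the median of ratios and turned to 0.26 (adjusted *p* = 0.383) under quantile normalization. Without treated replicate 2 the values were -0.60 (adjusted *p* = 0.0582) for SOX5 and -0.62 (adjusted *p* = 0.0712) for SOX6. The SOX5 call was also lost without any 1 untreated library or treated replicate 3, and the SOX6 call without any 1 treated library, while SOX6 was not tested without any 1 untreated library. Leaving out a library gave adjusted *p* values from 0.0444 to 0.125 for SOX5 and from 0.0636 to 0.0806 for SOX6 where each was tested. In all, with treated replicate 2 left out, 0 of the 4 members then tested were called in either direction by limma, and 2 had an unadjusted *p* under 0.05, both lower.

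SOX10, the glial and melanocyte factor, was at 2.12, 1.96 and 0.773 TPM in untreated H82 and at 0.193, 0.187 and 0.103 TPM in treated H82. Every treated library was lower, yet only 2 of the 6 libraries reached 1 TPM, so SOX10 was below the filter. The exact permutation *p* was 0.1, the smallest possible. With no filter limma gave -1.13 (SE 0.27, adjusted *p* = 0.022), and without treated replicate 2 in addition -1.15 (adjusted *p* = 0.0672). SOX1 ranged from 0 to 0.216 TPM in untreated and from 0.0977 to 0.378 TPM in treated H82, with overlapping groups (exact permutation *p* = 0.4). SOX8 was listed at 0 in all 6 H82 libraries.

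The change with FHD-286 differed between the lines for most members. Of the 8 members tested in 1 fit over all 13 libraries, the interaction of line and treatment was called for 6, all with a higher log2 fold change in H146 than in H82. Over all 24374 genes tested, 46% were called in that direction and 13.3% in the other, and the median difference was 0.75, so a positive value alone sets no gene apart. SOX1 (2.77, SE 0.47, adjusted *p* = 0.000337 by limma) and SOX21 (2.33, SE 0.32, adjusted *p* = 7.47e-05 by limma) differed most. SOX4 (1.54), SOX5 (1.46), SOX11 (1.40) and SOX6 (1.13) followed, with limma adjusted *p* values from 0.00109 to 0.00292. SOX6 reached 1 TPM only in untreated H82 and in treated H146 replicates 3 and 4. The filter thus favoured a positive difference for SOX6, and its sign is no separate result. Under the median of ratios, SOX4 (0.73, adjusted *p* = 0.09) and SOX11 (0.60, adjusted *p* = 0.0655) were no longer called. Under quantile normalization SOX5 (0.10) and SOX6 (0.11) were not called, and with a pseudocount of 0.1 SOX21 (0.12) was not.

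SOX2 and SOX9 had an interaction of the other sign, from a low start in H82. The interaction was -2.68 (SE 1.15, adjusted *p* = 0.0622 by limma) for SOX2 and -1.54 (SE 0.64, adjusted *p* = 0.0538 by limma) for SOX9, neither of which passed. Without treated H82 replicate 2 they were -1.25 (adjusted *p* = 0.00479) and -0.82 (adjusted *p* = 0.0481). Both also passed under the median of ratios (-3.30 and -1.97), and without treated H82 replicate 1 (-3.18 and -1.85) or replicate 3 (-3.62 and -1.96).

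**Figure D5:**
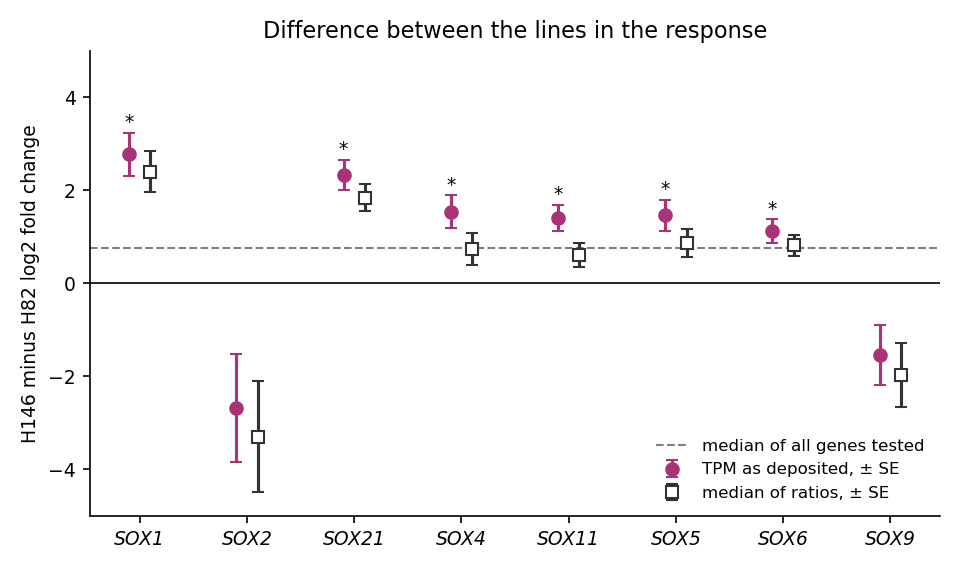
Difference between the lines (H146 minus H82) in the log2 fold change of TPM + 1 with FHD-286, with SE, for the 8 members tested over all 13 libraries. Filled points use TPM as deposited, open squares the median of ratios, and asterisks mark adjusted *p* under 0.05 for the filled points. The dashed line is the median of all genes for the filled points (0.75), and that median was 0.17 under the median of ratios. SOX1, SOX21, SOX5 and SOX6 lie above the line under both scalings, SOX1 and SOX21 furthest, and SOX2 and SOX9 lie below 0.

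Transcripts that overlap members moved with them in some cases and against them in others. SOX2-OT, a long non-coding RNA whose gene surrounds SOX2 on the same strand, was at 16.5, 15.8 and 15.5 TPM in untreated and at 7.26, 5.70, 9.95 and 11.2 TPM in treated H146. It fell (log2 fold change -0.87, SE 0.22, adjusted *p* = 0.011 by limma) in the libraries in which SOX2 was higher, and it was at 0.117 TPM or less in every H82 library. SOX9-AS1, antisense to SOX9, was at 1.87, 1.98 and 1.79 TPM without and at 0.4, 0.358, 0.251 and 0.365 TPM with FHD-286 in H146, and fell as SOX9 did (-1.10, SE 0.16, adjusted *p* = 0.00095 by limma). SOX9-AS1 passed the filter only through its untreated libraries, so its direction was fixed by the filter. Reads in parts that SOX2 and SOX2-OT share cannot be told apart, and for genes on opposite strands this holds where the counting does not use strand. POLR2F, an RNA polymerase II subunit gene annotated over SOX10 on the other strand, went from 19.9 ± 0.734 to 49.2 ± 16.5 TPM with treatment in H82 (SD, n = 3 each) and rose (1.20, adjusted *p* = 0.00707 by limma), against the direction of SOX10. C11orf58, over the start of SOX6 on the other strand, ran from 64.3 to 111 TPM in H82 and from 80.0 to 156 TPM in H146 and was called in neither line, though it was called higher in H82 under the median of ratios (0.89, adjusted *p* = 0.00754). MIR920, inside SOX5, reached at most 7.67 TPM.

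Of the 9 other SOX genes, 4 were tested in H146 and 3 in H82. In H146, 3 rose and 1 fell, with a median log2 fold change of 1.51. Over all genes tested there, 32.5% were called higher and 15.5% lower. Means are given ± SD, with n = 4 for treated H146 and n = 3 otherwise. The largest rise was that of SOX15, from 0.860 ± 0.368 to 9.67 ± 6.29 TPM (2.31, SE 0.48, adjusted *p* = 0.00536 by limma), and the fall was that of SOX13, a group D gene, from 58.9 ± 6.38 to 16.0 ± 11.4 TPM (-2.04, SE 0.43, adjusted *p* = 0.00555 by limma). SOX3, the remaining gene of group B1, was at 0 to 0.270 TPM without and at 2.90 to 4.70 TPM with FHD-286 and rose, like SOX1. However, SOX3 passed the filter only through its treated libraries, so its direction was fixed by the filter. SOX12, the remaining gene of group C, rose from 127 ± 13.9 to 247 ± 44 TPM. All genes of groups B1 and C were thus called higher in H146, but SOX2 was not called under the median of ratios. The SOX3 call adds nothing to this pattern, as it could only be a rise. In H82, 2 fell and none rose, with a median of -0.64, where 45.5% of all genes tested were called lower. The largest fall in H82 was that of SOX15 (14.6 ± 0.908 to 4.07 ± 1.46 TPM, -1.67, adjusted *p* = 0.00162 by limma). SOX12 had a log2 fold change of 0.19 there (adjusted *p* = 0.377) and was called higher under the median of ratios, where SOX7, the other gene that fell, was no longer called (-0.19, adjusted *p* = 0.369).

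Genes known to work with or under SOX factors moved in both directions. Over all genes tested in H82, 45.5% were called lower and 13.1% higher, with a median of -0.56. In H146, 15.5% were called lower and 32.5% higher, with a median of 0.25. These shares stand beside the counts from the same fit in this list and in the lists below. Under the median of ratios, 6499 of 19770 genes were lower and 4793 higher in H82. In H146, 4917 of 19585 were lower and 4167 higher under that scaling. Without treated replicate 2, 8187 of 19237 were lower and 1738 higher in H82. Among the 12 SOX2 partners and progenitor genes, 8 were tested in H146, of which 5 rose and 2 fell (median 0.52), and 3 rose and 2 fell under the median of ratios. FABP7, a fatty acid binding protein of radial glia, had the largest rise, from 1.74 ± 0.21 to 66.1 ± 7.34 TPM (4.61, SE 0.14, adjusted *p* = 1.14e-06 by limma), and PROM1, which encodes CD133, the largest fall (-1.40). In H82, 6 were tested, 5 fell and 1 rose (median -1.20). NES, which encodes the progenitor filament nestin, fell from 38.0 ± 3.05 to 2.82 ± 0.203 TPM (-3.35, SE 0.16, adjusted *p* = 6.75e-05 by limma), and the neural POU factor POU3F2 rose (0.57, adjusted *p* = 0.0327). Under the median of ratios 3 of the 5 falls stayed called. Without treated replicate 2, 5 fell and none rose.

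The 5 neuronal targets of SOX4 and SOX11 gave 1 rise in each line, TEAD2 both times (1.60 in H82 and 2.01 in H146). The TEAD2 gene, which encodes a DNA-binding partner of YAP, went from 10.2 ± 1.7 to 34.0 ± 11.2 TPM in H82 and from 0.146 ± 0.0157 to 3.90 ± 1.95 TPM in H146. In H146 TEAD2 passed the filter only through its treated libraries, so its direction there was fixed by the filter. None of 3 tested fell in H82, and 2 of 5 fell in H146, PROX1 most (-1.18, adjusted *p* = 0.00658 by limma). The list's median was 0.45 in H82 (0.14 without treated replicate 2) and -0.54 in H146, the latter against the direction of SOX4 and SOX11 themselves.

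Among the 11 cartilage matrix genes that SOX9, SOX5 and SOX6 control, 6 were tested in H146, 2 rose and 1 fell (median 0.37), and under the median of ratios 1 rose and 1 fell. The one that fell was COL2A1, the type II collagen gene and best-known SOX9 target, which went from 222 ± 48.9 (n = 3) to 4.38 ± 0.602 TPM (n = 4), a log2 fold change of -5.36 (SE 0.17, adjusted *p* = 1.14e-06 by limma). COL11A1, a type XI collagen gene, rose from 7.87 ± 1.25 to 62.4 ± 15.8 TPM. In H82, 4 were tested, and 1 was called, COL11A2, which fell (-1.14, adjusted *p* = 0.00305 by limma). COL11A2 passed the filter in H82 only through untreated libraries, so its direction was fixed by the filter. The same held, through treated libraries, for the gene other than COL11A1 that rose in H146. COL2A1 reached 30.1 TPM in treated H82 replicate 2 and was below the filter in that line.

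Of 11 Schwann cell and melanocyte targets of SOX10, 5 were tested in H82, and 3 fell and 2 rose (median -0.69). DCT, the dopachrome tautomerase gene of melanocytes, fell from 263 ± 20.3 to 5.29 ± 1.54 TPM (-5.42, SE 0.20, adjusted *p* = 4.5e-05 by limma). PMP22, a peripheral myelin protein gene, had the largest rise, from 1.24 ± 0.585 to 4.81 ± 0.36 TPM (1.40, SE 0.24, adjusted *p* = 0.00234 by limma). Under the median of ratios 1 fell and 2 rose, and without treated replicate 2, 2 fell and 2 rose. In H146, where SOX10 itself was close to 0, 8 were tested, 2 fell and 1 rose (median -0.28), with GJB1, a myelin gap junction gene, falling from 29.4 ± 2.79 to 0.931 ± 0.572 TPM and S100B rising from 0.645 ± 0.336 to 2.00 ± 0.58 TPM. S100B passed the filter only through treated libraries, and the other gene that fell in H146 only through untreated ones. Both directions were thus fixed by the filter, as was that of a gene other than DCT that fell in H82.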

How the data were processed

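RNA extraction, library preparation and sequencing were carried out at GENEWIZ. Per the labels and the study's methods, the authors trimmed reads with Trim Galore 0.4.4, mapped them to hg38 and counted them with STAR and GENCODE release 28, used DESeq2 for comparisons, and deposited TPM values, 1 table per line. How gene length entered the TPM, and the version of STAR, are not given in the sources used here. TPM is not a count, so no count model was used, and a rise in some genes lowers the TPM of the rest.

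Symbols were matched exactly, and all 10 members had 1 row in each table. Each line was fitted separately with limma 3.58.1 in R 4.3.3 (lmFit, eBayes with trend, treated against untreated) on log2(TPM + 1). Genes had to reach 1 TPM in 3 libraries of the line. Two-sided *p* values were adjusted by Benjamini-Hochberg across every gene tested. Fold changes of low genes are understated on this scale. Members below the filter were compared by exact permutation of mean log2(TPM + 1). The lines were compared by the interaction in 1 fit. Alternatives were the median of ratios, quantile normalization, a pseudocount of 0.1, no filter, a mean TPM above 2, no trend, library weights, a replicate block, each library left out, other thresholds, and ratios of mean TPM. Fits of H146 treated replicates 1 and 2 or 3 and 4 only, and of H82 without filter and treated replicate 2, were chosen after seeing the data. The fits were tested on simulated data. Text names all members in every library, the largest rise and fall past the threshold in each list and line, and genes overlapping a member that reach 1 TPM. SOX3, SOX7, SOX12 and the markers UCHL1, INSM1, SYP, CHGA, CHGB, DLL3, NCAM1, COL1A1 and LUM were named after their values were seen. The members and lists were chosen with earlier results of these data known. Exact tests used scipy 1.17.1, and plots matplotlib 3.10.9. Symbols SOX1-OT, SOX21-AS1 and SOX5-AS1 matched no row and were not analysed here. One gene of the SOX10 target list is not reported here and was left out of its counts.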

Additional observations from a re-analysis of the deposited data

Results flagged for a closer look

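The log2 fold change with FHD-286 differed between H146 and H82 (interaction by limma, adjusted *p* under 0.05, H146 minus H82) for 6 members. These were SOX1 (2.77), SOX4 (1.54), SOX5 (1.46), SOX6 (1.13), SOX11 (1.40) and SOX21 (2.33). SOX6 passed the filter only through untreated H82 and treated H146 libraries, which favours a positive difference. SOX21 was listed at 0 in untreated H82, and its difference depends on the pseudocount. Among the other genes named, the difference was positive for COL11A1 (3.51), COL11A2 (1.58), DCT (5.03), FABP7 (3.11), NES (2.72) and SOX15 (3.97). It was negative for COL2A1 (-7.25), GJB1 (-5.02), PMP22 (-1.20), PROX1 (-1.63), SOX13 (-2.40), SOX2-OT (-0.85) and SOX9-AS1 (-1.11). SOX9-AS1 passed the filter only through untreated H146 libraries, which favours a negative difference. The median over all genes was 0.75.

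In the 4 treated H146 libraries, 1 library was far from the others for DCT, where its gap took 0.909 of the range, and for NES, where it took 0.86 of the range. The critical value is 0.829 for 4 libraries, and chance alone passes it in about 1 in 20 groups. No SOX member passed it.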

How the results depend on the processing

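In H146 the rises of SOX1, SOX4, SOX11 and SOX21 kept direction and threshold under every alternative fit, as did the difference between the lines of SOX1, but SOX11 had a log2 fold change under 1. The other calls of members changed as follows, and the cause was not tested. Of the H82 members, 2 were called lower and 1 higher. The lower count was 0 under the median of ratios, quantile normalization, a log2 fold change of at least 1, the replicate block, and no filter with treated replicate 2 left out, and 1 with no filter (SOX10) or a mean TPM above 2 (SOX5). The higher count was 2 under the median of ratios, quantile normalization, library weights and unadjusted *p* values (SOX2 and SOX4), and 2 with no filter and without treated replicate 2 (SOX2 and SOX21). Leaving out single libraries gave 0 to 2 lower and 0 to 1 higher. Under quantile normalization the H82 values reversed for SOX5 (0.44), SOX6 (0.26) and COL11A1 (0.15). Of the H146 members, 1 was called lower, and 0 with a log2 fold change of at least 1, no filter, no trend, the replicate block, or treated replicates 3 and 4 only. The 6 called higher became 3 with a log2 fold change of at least 1, 4 under the median of ratios (without SOX2 and SOX5), and 5 under quantile normalization, with no filter, with the replicate block or with treated replicates 1 and 2 only (without SOX5). Leaving out single libraries gave 0 to 1 lower and 4 to 6 higher. In H146, POLR2F turned to -0.0326 under the median of ratios and -0.14 with treated replicates 1 and 2 only, and POU3F2 to -0.0519 under the median of ratios. None of these 3 values was called.

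Counts over all genes moved as well. In H82, 8996 lower became 5547 under quantile normalization, and 2588 higher became 4793 under the median of ratios, 5067 under quantile normalization, 3975 with library weights and 1356 with a log2 fold change of at least 1. Single libraries left out gave 4291 to 9957 lower and 1676 to 3503 higher. In H146, 3033 lower became 4917 under the median of ratios, 4806 with library weights and 1542 with a log2 fold change of at least 1, and 6356 higher became 4167 under the median of ratios and 2857 with a log2 fold change of at least 1. Single libraries left out gave 1812 to 3729 lower in H146. The split of calls thus shifts with the scaling.

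Same-numbered libraries showed no shared deviation from their group means. Their deviations correlated between -0.11 and 0.03, and not every library correlated best with its own number. This does not settle whether the libraries were paired by design. With the replicate block, 8625 genes were lower and 2333 higher in H82, and 2377 lower and 4749 higher in H146, where 5 members were called higher. Without read counts, the precision of members under 1 TPM could not be bounded.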
